A study of Homo sapiens with 9 samples.

Results

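BMF and 9 other genes of the BCL2 family were followed in RNA sequencing of Huh7 cells treated with siRNAs against KDM4C, a histone lysine demethylase. The 10 genes were taken by symbol from the 32906 genes listed for every library: BMF, BCL2L11, PMAIP1, BAD, BID, BIK, BCL2, BCL2L1, MCL1 and BAK1. BMF was picked because it was lower with both siRNAs than with the control, so its difference from the control is described and not tested. The study asked how the transcriptome of hepatocellular carcinoma cells responds to loss of KDM4C, and it used 9 libraries. Of these, 3 came from cells given a scrambled siRNA (Scramble), 3 from cells given Si-KDM4C#1 and 3 from cells given Si-KDM4C#2. All cells were kept in DMEM with serum and had carried the siRNA for 48 hours. Both siRNAs were compared with the same 3 Scramble libraries.

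The BCL2 family sets whether a cell commits to mitochondrial apoptosis. The effector proteins, BAK and BAX among them, open the outer mitochondrial membrane and release cytochrome c, and the pro-survival proteins, such as BCL2, BCL-XL (from BCL2L1) and MCL1, bind and restrain them. The BH3-only proteins, which include BMF, BIM (BCL2L11), NOXA (PMAIP1), BAD, BID and BIK, carry stress signals to the family by inserting a short helix, the BH3 domain, into a groove of the pro-survival proteins. Family members hold a BH3 sequence whatever their role. It turns on a leucine and, 4 residues further on, a small residue followed by an aspartate.

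In 1 principal GENCODE release 29 transcript per gene, the coding sequence of each of the 10 genes held exactly 1 such core, within a single exon. The search took glycine, alanine or serine as the small residue and also asked for a hydrophobic residue shortly after the aspartate. The cores of 6 of the 10 genes are shown, since such cores are the feature that ties a BH3-only gene, the pro-survival genes and an effector into 1 family. Each line gives 45 coding bases of the transcript strand, 5′ to 3′, and the capitals mark the codons of the leucine, of the small residue and of the aspartate.
BMF: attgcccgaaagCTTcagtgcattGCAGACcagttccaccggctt
BCL2L11: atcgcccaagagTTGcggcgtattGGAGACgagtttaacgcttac
PMAIP1: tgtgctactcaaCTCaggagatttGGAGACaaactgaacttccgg
BCL2L1: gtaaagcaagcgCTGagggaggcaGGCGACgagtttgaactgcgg
MCL1: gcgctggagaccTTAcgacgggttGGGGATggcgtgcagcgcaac
BAK1: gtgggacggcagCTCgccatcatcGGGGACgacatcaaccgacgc

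In GRCh38 the stretch of BMF lies at chr15:40104192-40104236 on the minus strand, that of BCL2L11 at chr2:111150091-111150135 on the plus strand and that of PMAIP1 at chr18:59902661-59902705 on the plus strand. Those of BCL2L1 (chr20:31721919-31721963), MCL1 (chr1:150578862-150578906) and BAK1 (chr6:33575384-33575428) are on the minus strand. The small residue is alanine in BMF, serine in BAD and glycine in the other 8 genes. The BMF gene itself spans chr15:40087890-40108892. Its transcript BMF-201 has 5 exons and 184 codons.

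The deposited values are FPKM, fragment counts scaled by exon length and library total. The length that fitted them was that of all annotated exons of a gene together, which can far exceed 1 transcript. For BCL2L11 it is 6658 bases, beside 1522 in its principal transcript, and for BIK both are 953. Levels set side by side between genes, and the orders, sums and shares below, thus depend on the annotation and are approximate. The totals fitted to the values ran from 14597503 to 18058557 fragments per library. KDM4C was at 4.57 to 4.88 FPKM with Scramble, 1.10 to 1.18 FPKM under Si-KDM4C#1 and 0.256 to 0.349 FPKM under Si-KDM4C#2, so the targeted mRNA was low in every knockdown library. Its paralog KDM4B was at 6.06 to 6.67 FPKM with Scramble, 5.16 to 6.42 under Si-KDM4C#1 and 1.10 to 1.26 under Si-KDM4C#2. The log2 fold change of KDM4B under Si-KDM4C#2 was −1.74 (adjusted p = 1.43e-07), so this siRNA came with a fall of a second KDM4 mRNA. The part of KDM4B in the differences below was not tested. Huh7 is a line from a hepatocellular carcinoma, yet none of the 11 hepatocyte markers analysed reached a mean of 1 FPKM in any group, and together they summed to 0.0483 to 0.450 FPKM per library. AFP, a marker of hepatoma, was at most at 0.0203 FPKM. Of the epithelial markers, KRT8 and KRT18 were at 95.5 FPKM or more in every library, while KRT19 was at most at 0.2998 and CDH1 at most at 0.0322 FPKM. Of 5 mesenchymal markers, VIM (48.3 to 66.7 FPKM), COL1A1 (14.3 to 17.9) and CDH2 (8.98 to 14.7) were present in every library. FN1 ran from 0.701 to 3.05 FPKM, with its higher mean in Scramble, and COL1A2 was at most at 0.00578 FPKM. None of 5 haematopoietic markers reached 1 FPKM. The hepatocyte markers thus go against the label, which is kept here as the submitters gave it, and the identity of the cells was not tested.

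BMF, whose protein is held by dynein light chain at the actin and myosin V cytoskeleton of healthy cells and is known from detachment-induced death, was abundant in the control and low in every knockdown library. It was at 10.5, 11.7 and 9.86 FPKM in the 3 Scramble libraries. With Si-KDM4C#1 it was at 0.823, 1.08 and 0.537 FPKM, and under Si-KDM4C#2 at 1.99, 2.56 and 2.12 FPKM. No value of one group lay within the range of another. The mean was 10.7 ± 0.930 FPKM (SD, n = 3) with Scramble, 0.814 ± 0.272 under Si-KDM4C#1 and 2.22 ± 0.299 under Si-KDM4C#2, which left 0.0763 and 0.208 of the control level. Behind these values stood 2793 fragments over the Scramble libraries, 214 over the Si-KDM4C#1 libraries and 582 over the Si-KDM4C#2 libraries. On the log2(FPKM + 1) scale used throughout, which understates the change of genes with low values, the differences from Scramble were −2.69 and −1.86.

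Among the 14363 genes tested, those whose mean reached 1 FPKM in 1 group or more, the fall of BMF ranked 5 under Si-KDM4C#1 and 15 under Si-KDM4C#2. By the smaller of its falls with the siRNAs it ranked 3. These ranks describe how BMF was picked. The siRNAs themselves could be compared with a test. BMF was higher under Si-KDM4C#2 than under Si-KDM4C#1 by 0.84 on the log2 scale (SE 0.117, 95% interval 0.57 to 1.10, adjusted p = 0.000178, limma with Benjamini-Hochberg adjustment over all genes tested), a ratio of 2.73 between the mean FPKM. An antisense gene, BMF-AS1, shares 461 exon bases with BMF, 8.46% of its exon bases, and was not analysed here. Whether fragments were counted by strand is not given in the sources used here, so sense and antisense fragments over the shared bases cannot be told apart.

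**Figure D1:**
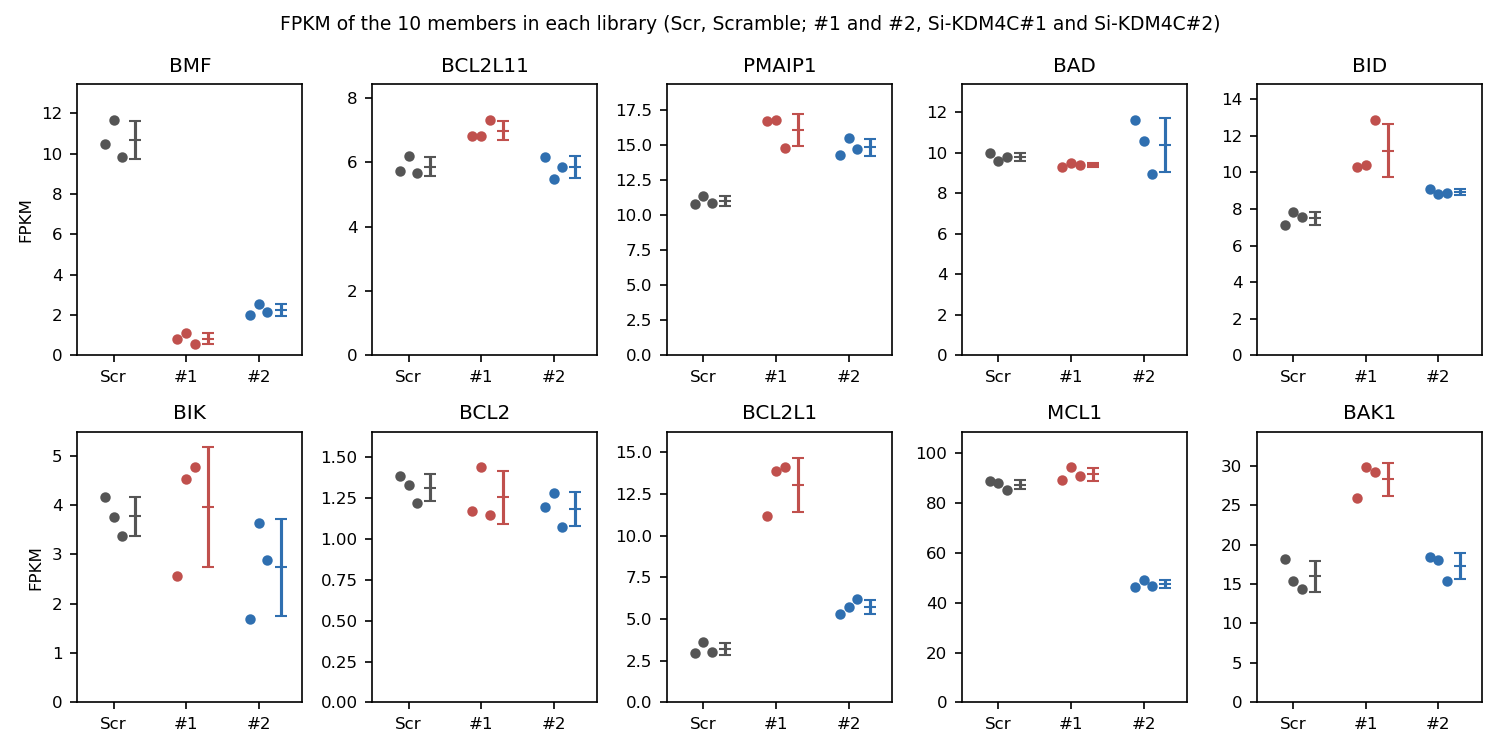
FPKM (y axis, linear, from 0) of each of the 10 genes in the 3 libraries of each group (x axis: Scr, Scramble; #1, Si-KDM4C#1; #2, Si-KDM4C#2), with points for libraries and bars for the mean ± SD. BMF sits at 9.86 to 11.7 FPKM with Scramble and at no more than 2.56 with either siRNA, BCL2L1 and BAK1 stand highest under Si-KDM4C#1, and MCL1 is far lower under Si-KDM4C#2, at 46.1 to 49.1 FPKM.

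All of the other 9 genes passed the expression filter, and under Si-KDM4C#1 none of them fell beside BMF. At an FDR under 0.05 in limma, 5 of them rose (BCL2L11, PMAIP1, BID, BCL2L1 and BAK1), 0 fell and 4 did not pass the test. The number that fell was also 0 at an unadjusted p under 0.05 and in a fit on whole fragments recovered from the FPKM. Over all genes tested, 31.7% rose and 33.9% fell in this comparison. The median log2 fold change of the 9 genes was 0.22, beside −0.03 over all genes tested. Quantile normalization and an adjustment for GC content each gave 1 gene that fell (MCL1 and BAD, respectively). BCL2L1 was the single gene of the 9 past a 2-fold change, where the background was 4.04% higher and 4.83% lower.

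With Si-KDM4C#2, 3 of the 9 genes rose (PMAIP1, BID and BCL2L1), 1 fell (MCL1) and 5 did not pass the test. The number that fell was 2 after the GC adjustment (with BAD) and 3 with the replicate block added to it (with BAD and BIK). The background was 34.4% higher and 25% lower. The median of the 9 genes was 0.07 and that of all genes tested was 0.06. None of the 9 was past a 2-fold change, against a background of 2.6% higher and 2.3% lower. The methods state that experiments were repeated independently, but no label says that the numbered libraries came from separate cultures, so p-values measure the spread between these libraries, which may be technical. In bulk RNA, fewer cells carrying an mRNA and less of it per cell cannot be told apart.

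Between the siRNAs, where BMF could be included, 1 of 10 genes was higher under Si-KDM4C#2 (BMF) and 5 were lower (BCL2L11, BID, BCL2L1, MCL1 and BAK1), while 4 did not pass the test. Of all genes tested, 35.9% were higher and 26.5% lower in the same direction of comparison. The median of the 10 genes was −0.26, and over all genes it was 0.08. On the log2(FPKM + 1) scale BCL2L1 was the single gene past a 2-fold change here, with a background of 4.41% higher and 2.49% lower. BMF was past it with a pseudocount of 0.1 (1.38) and in the fragment-based fit (1.37), and MCL1 in the fragment-based fit (−1.08) and after the GC adjustment (−1.01). Without replicate 3 of Si-KDM4C#2, the genes higher with that siRNA numbered 2, the second being BAD.

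**Figure D2:**
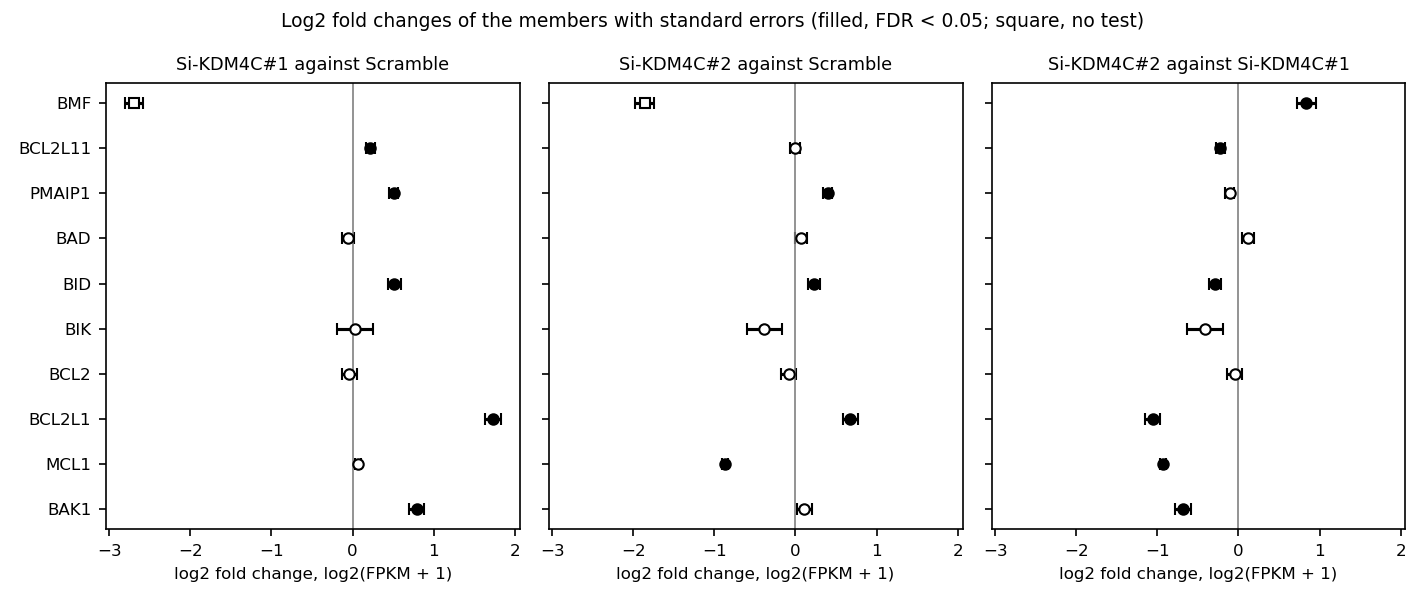
Log2 fold change on log2(FPKM + 1) (x axis, bars of 1 standard error) of the 10 genes in the 3 comparisons. Filled points passed an FDR of 0.05, open points did not, and the open squares of BMF carry no test because BMF was picked by those comparisons. BMF lies at −2.69 and −1.86 against Scramble, BCL2L1 at 1.73 and 0.68, and MCL1 at 0.07 and −0.87.

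Among the BH3-only genes, PMAIP1 rose with both siRNAs. It encodes NOXA, a small protein that binds MCL1 above all. It was at 10.8, 11.4 and 10.8 FPKM with Scramble, at 16.6, 16.8 and 14.8 under Si-KDM4C#1 and at 14.3, 15.4 and 14.7 under Si-KDM4C#2. Every knockdown library was above every Scramble library, while the ranges of the siRNAs overlapped. The log2 fold changes were 0.51 (SE 0.055, adjusted p = 2.69e-05) and 0.40 (SE 0.055, adjusted p = 0.00019). The difference between the siRNAs, −0.11 (95% interval −0.23 to 0.02), did not pass the test (adjusted p = 0.114). It did pass without replicate 3 of Si-KDM4C#1 (−0.17, adjusted p = 0.0172), with the fragment-based fit (−0.24) and with the GC adjustment (−0.27).

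BID rose under Si-KDM4C#1. Its protein is cut by caspase-8 and links death receptors to mitochondria. BID was at 7.11, 7.81 and 7.56 FPKM with Scramble, 10.3, 10.4 and 12.9 under Si-KDM4C#1 and 9.08, 8.82 and 8.87 under Si-KDM4C#2. The 3 groups did not overlap. The log2 fold change under Si-KDM4C#1 was 0.52 (SE 0.077, adjusted p = 0.000238), and the siRNAs differed by −0.29 (adjusted p = 0.00846). With Si-KDM4C#2 it was 0.23 (SE 0.077, adjusted p = 0.0293). That last call was lost in the quantile-normalized (adjusted p = 0.0986), unfiltered (0.0716), fragment-based (0.059) and GC-adjusted (0.0993) fits. It was also lost without Scramble replicate 1 (adjusted p = 0.0886) or 3 (0.0581), and without Si-KDM4C#2 replicate 1 (0.0776), 2 (0.058) or 3 (0.0627).

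BCL2L11, which encodes BIM, a BH3-only protein able to bind every pro-survival member, rose under Si-KDM4C#1 and was lower under Si-KDM4C#2 than under Si-KDM4C#1. It was at 5.73, 6.21 and 5.66 FPKM with Scramble and at 6.81, 6.82 and 7.33 under Si-KDM4C#1. With Si-KDM4C#2 it was at 6.17, 5.49 and 5.87 FPKM. The Si-KDM4C#1 libraries lay above all others, and the Scramble and Si-KDM4C#2 ranges overlapped. The log2 fold change was 0.22 (SE 0.057, adjusted p = 0.00701) under Si-KDM4C#1 and −0.22 (adjusted p = 0.0067) between the siRNAs. With Si-KDM4C#2 the difference from Scramble was −0.005 (95% interval −0.13 to 0.12, adjusted p = 0.951), and 0.008 after the GC adjustment. The antisense transcript MIR4435-2HG shares 10.9% of the BCL2L11 exon bases and was at 0.769 to 0.798 FPKM in the group means.

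BAD and BIK passed no test. BAD, a BH3-only protein switched by phosphorylation downstream of survival signals, had means of 9.80 ± 0.199, 9.40 ± 0.10 and 10.4 ± 1.35 FPKM (SD, n = 3) with Scramble, Si-KDM4C#1 and Si-KDM4C#2. Its log2 differences from Scramble were −0.05 (95% interval −0.22 to 0.12) and 0.07 (−0.10 to 0.24). The GC adjustment moved them to −0.38 (adjusted p = 0.000887) and −0.33 (adjusted p = 0.0027), so the direction of BAD under Si-KDM4C#2 turned with that setting. Replicate 3 of Si-KDM4C#2, at 8.96 FPKM, lay below the other libraries of its group, at 11.6 and 10.6, and without it BAD was 0.16 higher than Scramble (adjusted p = 0.0289) and 0.22 higher than under Si-KDM4C#1 (adjusted p = 0.00758). The gene GPR137 overlaps BAD on the other strand over 23.7% of the BAD exon bases, at 9.77, 6.74 and 8.32 FPKM in the 3 groups.

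BIK, a BH3-only protein of the endoplasmic reticulum, had the largest standard error of the 10 genes (0.221). It was at 4.17, 3.76 and 3.37 FPKM with Scramble, 2.56, 4.53 and 4.77 under Si-KDM4C#1 and 1.69, 3.64 and 2.89 under Si-KDM4C#2. All 3 groups overlapped. The differences from Scramble were 0.03 (95% interval −0.47 to 0.52, and −0.10 after the GC adjustment) and −0.38 (−0.88 to 0.12). These values rest on 126 to 180 fragments per group. Under Si-KDM4C#2 BIK passed the test after the GC adjustment with the replicate block (−0.55, adjusted p = 0.0314) and not with that adjustment alone (adjusted p = 0.0636). Between the siRNAs the difference of −0.41 (adjusted p = 0.137) passed the test without replicate 1 of Si-KDM4C#1 (−0.63, adjusted p = 0.0229) and in the fragment-based fit (−0.63, adjusted p = 0.0431).

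Of the pro-survival genes, BCL2L1 rose with both siRNAs and MCL1 fell under Si-KDM4C#2. BCL2L1, the gene of BCL-XL, was at 2.98, 3.62 and 3.05 FPKM with Scramble. It was at 11.2, 13.8 and 14.1 FPKM under Si-KDM4C#1 and at 5.31, 5.72 and 6.17 FPKM under Si-KDM4C#2. The groups were fully apart, with mean levels 4.06 and 1.78 times the control mean. The log2 fold changes were 1.73 (SE 0.095, adjusted p = 2.8e-07) and 0.68 (SE 0.095, adjusted p = 0.000204), and the siRNAs differed by −1.06 (adjusted p = 8.75e-06). These values are per gene and do not separate the long, pro-survival splice form from the short one. The antisense gene ABALON shares 43% of the exon bases and was at 0.260 to 0.336 FPKM in the group means.

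MCL1, a short-lived pro-survival protein that restrains BAK and is the main partner of NOXA, had the highest FPKM of the 10 genes in every group. It was at 88.6, 88.1 and 85.1 FPKM with Scramble, 89.1, 94.3 and 90.8 under Si-KDM4C#1 and 46.1, 49.1 and 46.8 under Si-KDM4C#2. The Si-KDM4C#2 libraries lay far below the others, at 0.543 of the control mean, and the Si-KDM4C#1 libraries lay just above the Scramble libraries. The log2 fold change under Si-KDM4C#2 was −0.87 (SE 0.037, adjusted p = 1.31e-07), and −0.94 (adjusted p = 5.82e-08) against Si-KDM4C#1. With Si-KDM4C#1 it was 0.07 (adjusted p = 0.146), and its direction depended on the scaling, with −0.12 after quantile normalization (adjusted p = 0.0181), 0.13 in the fragment-based fit (adjusted p = 0.0113) and 0.17 after the GC adjustment (adjusted p = 0.0027).

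BCL2, the founding pro-survival gene, had the lowest FPKM of the 10 in Scramble and in Si-KDM4C#2 libraries. Its means were 1.31 ± 0.0840, 1.25 ± 0.161 and 1.18 ± 0.104 FPKM (SD, n = 3). The groups overlapped. The differences from Scramble were −0.04 (95% interval −0.25 to 0.17) and −0.08 (−0.29 to 0.12), and that under Si-KDM4C#1 turned to 0.12 after quantile normalization.

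BAK1, the effector among the 10 genes, rose under Si-KDM4C#1. It was at 18.2, 15.4 and 14.4 FPKM with Scramble, 25.9, 29.8 and 29.1 under Si-KDM4C#1 and 18.4, 18.1 and 15.4 under Si-KDM4C#2. The Si-KDM4C#1 libraries lay above all others, while Scramble and Si-KDM4C#2 overlapped. The mean was 1.77 times that of the control, with a log2 fold change of 0.79 (SE 0.095, adjusted p = 5.42e-05), and the siRNAs differed by −0.68 (adjusted p = 0.000175). With Si-KDM4C#2 the difference from Scramble was 0.11 (95% interval −0.10 to 0.32, adjusted p = 0.344), and −0.11 after the GC adjustment. A processed copy, BAK1P1, is listed at up to 2.74 FPKM, so part of the BAK1 fragments may be split between the copies.

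The order of the genes by FPKM changed between the groups. With Scramble, MCL1 led, followed by BAK1, then PMAIP1, BMF and BAD, whose neighbouring ranges overlapped, then BID and BCL2L11, then BIK and BCL2L1, which overlapped, and BCL2. With Si-KDM4C#1, BMF stood last, below BCL2, and BCL2L1 had moved up beside BID. With Si-KDM4C#2, BMF overlapped BIK and stayed above BCL2, and BCL2L1 overlapped BCL2L11.

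BMF was a sizeable part of the summed BH3-only FPKM in control libraries and a small part of it in all knockdown libraries. The 8 BH3-only genes (with BBC3 and HRK) summed to 51.5 ± 2.15 FPKM (SD, n = 3) with Scramble, 68.5 ± 2.92 under Si-KDM4C#1 and 48.6 ± 1.68 under Si-KDM4C#2. BMF made up 20.02% to 21.8% of that sum in the Scramble libraries, 0.749% to 1.60% under Si-KDM4C#1 and 4.09% to 5.09% under Si-KDM4C#2. Without BMF the sums were 40.8 ± 1.3, 67.7 ± 3.12 and 46.4 ± 1.47 FPKM, and no knockdown library fell within the Scramble range of 39.4 to 41.8. Much of the higher sum under Si-KDM4C#1 came from BBC3, with means of 2.71 FPKM with Scramble, 19.7 under Si-KDM4C#1 and 3.35 under Si-KDM4C#2. These sums and shares carry no test. As BMF was picked for its fall with both siRNAs, its lower share restates that pick and is no separate result.

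The 5 pro-survival genes analysed summed to 99.7 ± 2.77 FPKM with Scramble, 113.7 ± 4.09 under Si-KDM4C#1 and 63.6 ± 1.41 under Si-KDM4C#2. MCL1 gave 86.4% to 88.3% of the sum with Scramble, 79.8% to 81.3% under Si-KDM4C#1 and 73.3% to 75.3% under Si-KDM4C#2. BCL2L1 gave 2.91% to 3.63% with Scramble, 10.2% to 12.4% under Si-KDM4C#1 and 8.45% to 9.85% under Si-KDM4C#2. The effectors BAK1, BAX and BOK summed to 49.5 ± 3.75, 92.4 ± 5.05 and 52.8 ± 3.29 FPKM, so the Si-KDM4C#1 libraries stood above the other 6.

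**Figure D3:**
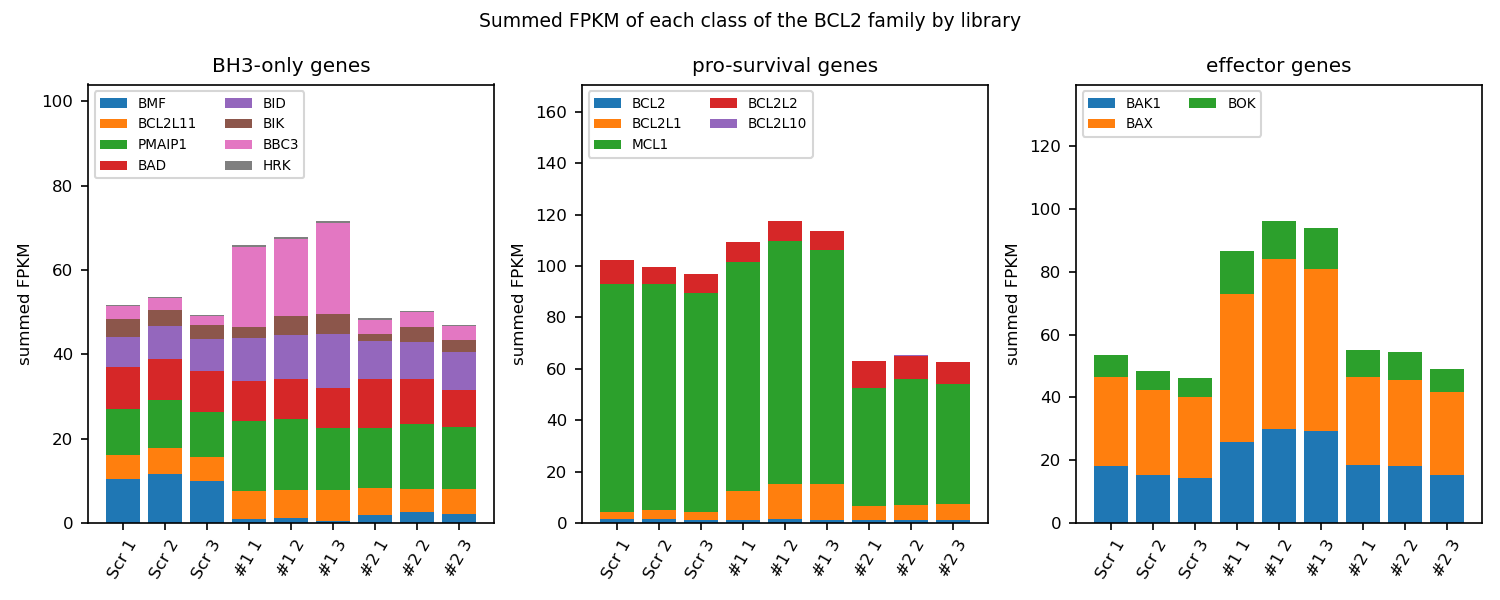
Summed FPKM (y axis, from 0) of the BH3-only, pro-survival and effector genes in each of the 9 libraries (x axis), stacked by gene. The BMF block at the base of the BH3-only bars is 20.02% to 21.8% of the bar with Scramble and at most 5.09% with an siRNA, the MCL1 block shrinks only in the Si-KDM4C#2 bars, and the effector bars are tallest under Si-KDM4C#1.

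Around the 10 genes, 70 further genes of the apoptosis machinery were analysed from a list of 71, and 63 passed the expression filter. With Si-KDM4C#1, 28 rose, 17 fell and 18 did not pass the test, beside backgrounds of 31.7% and 33.9%. Past 2-fold, 8 rose and 2 fell, beside 4.04% and 4.83% of all genes tested. With Si-KDM4C#2, 27 rose, 20 fell and 16 did not pass, beside backgrounds of 34.4% and 25%. Past 2-fold, 2 rose and 4 fell, beside 2.6% and 2.3%. The medians were 0.08 and 0.13, beside −0.03 and 0.06 over all genes. Between the siRNAs, 22 were higher and 26 lower under Si-KDM4C#2, beside backgrounds of 35.9% and 26.5%. Past 2-fold, 0 were higher and 5 lower, beside 4.41% and 2.49%.

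Of the tested family members outside the 10, BBC3, BAX, BOK and BCL2L12 rose under Si-KDM4C#1. BBC3, the gene of the BH3-only protein PUMA, was at 3.15, 2.91 and 2.07 FPKM with Scramble and at 19.1, 18.3 and 21.6 under Si-KDM4C#1. With Si-KDM4C#2 it was at 3.33, 3.44 and 3.30 FPKM. Its log2 fold changes were 2.49 (adjusted p = 6.68e-08) and 0.24 (adjusted p = 0.0738), and the siRNAs differed by −2.24 (adjusted p = 1.58e-07). Among the 7 BH3-only genes that passed the filter, BBC3 had the highest log2 fold change under Si-KDM4C#1 and BMF, which was picked for its fall, the lowest. The effectors BAX (0.89, adjusted p = 7.69e-07) and BOK (0.91, adjusted p = 3.04e-06) rose along with BAK1. With Si-KDM4C#2 BAX was at 0.02 (adjusted p = 0.82) and BOK rose by 0.29 (adjusted p = 0.00653). Of 6 other genes with BCL2 homology tested, 1 rose and 4 fell under Si-KDM4C#1 (31.7% and 33.9% of all genes tested). With Si-KDM4C#2, 3 rose and 3 fell (34.4% and 25% of all genes). Among them BNIP3 (−1.64 and −1.15) and BNIP3L (−0.98 and −0.83), genes of mitophagy receptors, fell with both siRNAs, and BCL2L12 rose with both (0.58 and 0.64). BCL2L13 was at 0.01 under Si-KDM4C#1 (adjusted p = 0.867) and rose under Si-KDM4C#2 (0.48, adjusted p = 7.65e-05). BNIP3 has processed copies that may share its fragments.

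Of the 15 genes for partners and turnover of the family, 1 rose and 5 fell under Si-KDM4C#1 (31.7% and 33.9% of all genes tested). With Si-KDM4C#2, 4 rose and 8 fell (34.4% and 25% of all genes). Between the siRNAs, 7 were higher and 4 lower under Si-KDM4C#2 (35.9% and 26.5% of all genes), and 4 did not pass the test. DYNLL2, the dynein light chain that holds BMF, rose from 7.59 to 24.7 FPKM under Si-KDM4C#1 (1.58, adjusted p = 5.07e-08) and to 13.8 FPKM under Si-KDM4C#2 (0.79, adjusted p = 5.82e-06). DYNLL1, the light chain that binds BIM, was at −0.01 under Si-KDM4C#1 (adjusted p = 0.858) and rose by 0.31 under Si-KDM4C#2 (adjusted p = 0.000546). VDAC2, a channel protein that keeps BAK at the mitochondrion, was at 69.8 FPKM with Scramble, 73.8 under Si-KDM4C#1 and 20.1 under Si-KDM4C#2 (−1.75, adjusted p = 5.01e-08). Of the genes that act on MCL1 turnover, the ubiquitin ligase HUWE1 (−0.65 and −0.36) and the deubiquitinase USP9X (−0.79 and −0.54) fell with both siRNAs, and the ligase gene FBXW7 did not pass the test (0.15 and 0.06). Also on the list, BTRC fell with both siRNAs (−0.50 and −0.42) and TRIM17 did not pass the test (−0.31 and −0.08).

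Of the 10 transcription factors tested that are known to act on BH3-only genes, 9 rose under Si-KDM4C#1 (31.7% of all genes did) and 5 under Si-KDM4C#2 (34.4% of all genes), and the others did not pass the test. ATF3 (1.95, adjusted p = 1.83e-08), MYC (1.52), JUN (1.48), ATF4 (1.35) and DDIT3 (1.03, adjusted p = 0.000123) were past 2-fold under Si-KDM4C#1. With Si-KDM4C#2, ATF4 (1.03, adjusted p = 6.53e-08) and MYC (0.55) rose, while ATF3 (0.13), JUN (0.22) and DDIT3 (0.20) did not pass the test. FOXO3, a factor known to act on BMF and BCL2L11, was at 0.10 (adjusted p = 0.372) and 0.07 (adjusted p = 0.512). Of its relatives, FOXO1 rose under Si-KDM4C#1 (0.27, adjusted p = 0.00268) and was at −0.05 under Si-KDM4C#2 (adjusted p = 0.512), and FOXO4 rose with both (0.24 and 0.63).

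Downstream, APAF1, the scaffold of the apoptosome, fell with both siRNAs (−1.14 and −0.92), while the caspase gene CASP6 rose (0.96 and 0.38). BIRC5, the gene of survivin, rose (0.96 and 1.37) and BIRC3, another inhibitor of apoptosis, fell (−0.62 and −1.13). ENDOG, a mitochondrial nuclease, rose (1.17 and 0.73). AIFM1, a flavoprotein of the mitochondrial intermembrane space, fell under Si-KDM4C#2 (−1.08, adjusted p = 2.05e-07) and was at −0.06 under Si-KDM4C#1 (adjusted p = 0.3). In the death receptor pathway the adaptor FADD rose (0.72 and 0.97) and the kinase RIPK1 fell (−0.75 and −0.64).

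**Figure D4:**
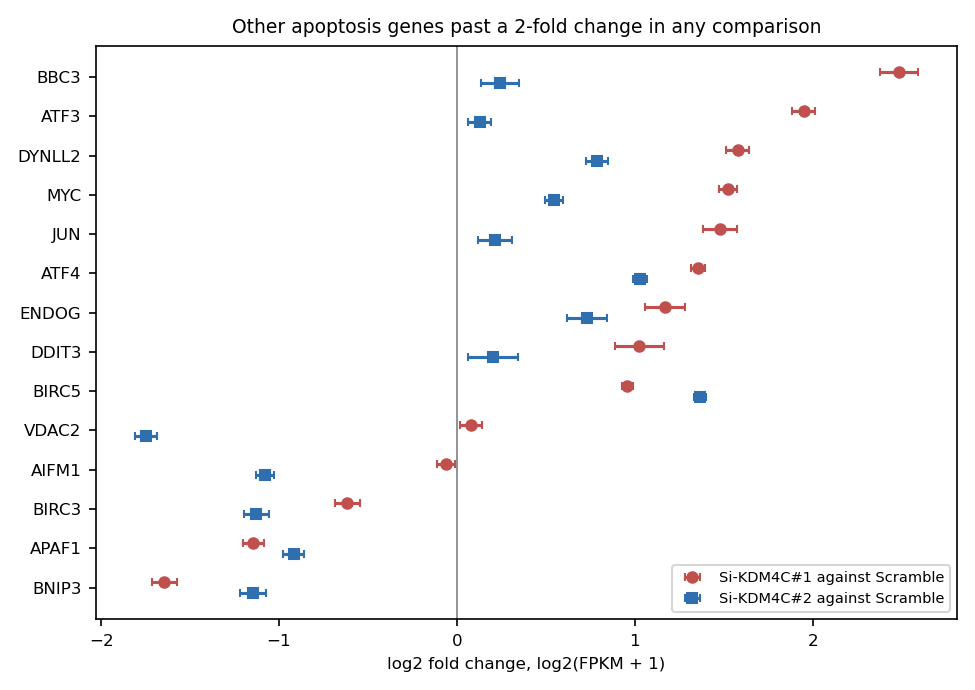
Log2 fold change on log2(FPKM + 1) (x axis, bars of 1 standard error) of the 14 listed genes outside the 10 that changed over 2-fold in at least 1 comparison, with circles for Si-KDM4C#1 and squares for Si-KDM4C#2 against Scramble. BBC3 (2.49 and 0.24) and ATF3 (1.95 and 0.13) are far apart between the siRNAs, VDAC2 (0.08 and −1.75) falls under Si-KDM4C#2 alone, and APAF1 and BNIP3 lie below 0 with both.

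The genes whose values over the 9 libraries were most like those of BMF were sought by the root mean square difference between log2(FPKM + 1) values, each centred on the gene's own mean. The nearest was SLC12A3, a sodium chloride cotransporter, at a difference of 0.241, with means of 76.9, 13.3 and 29.4 FPKM in Scramble, Si-KDM4C#1 and Si-KDM4C#2 libraries. It was followed by AP001781.1 (0.294), by RDX, which encodes the membrane and actin linker radixin (0.31), by SLC5A3, a myo-inositol cotransporter (0.32), and by TMOD1, an actin capping protein (0.361). RDX was at 34.6, 7.64 and 13.6 FPKM, and TMOD1 at 10.7, 1.38 and 4.75 FPKM. As they were sought for their likeness, no test was made.

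**Figure D5:**
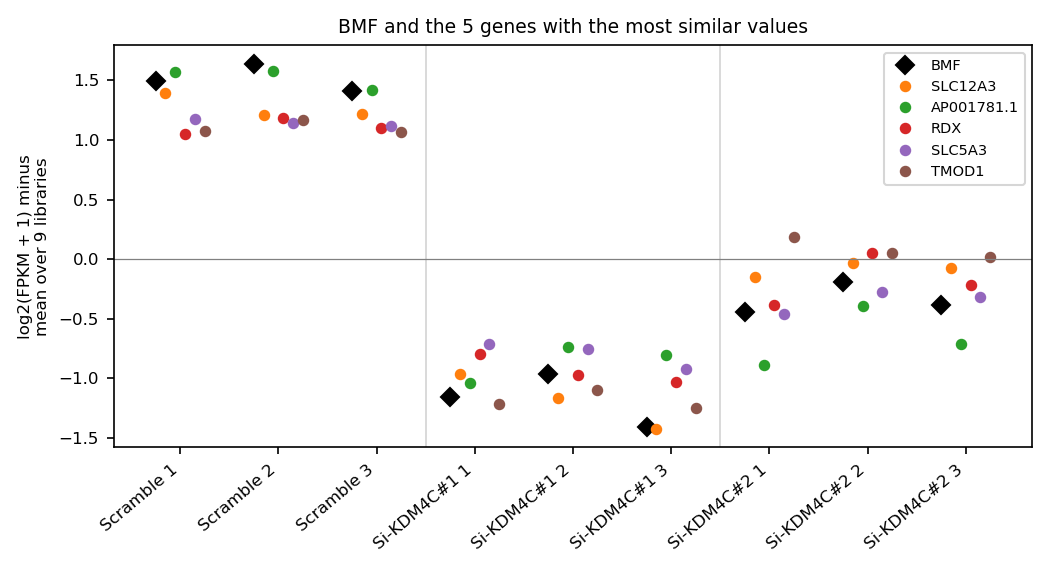
Log2(FPKM + 1) minus the gene's mean over the 9 libraries (y axis) for BMF (diamonds) and the 5 genes nearest to it (circles), by library (x axis). All 6 genes are above their mean in the Scramble libraries and below it under Si-KDM4C#1, and SLC12A3, at a root mean square difference of 0.241, lies closest to BMF.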

How the data were processed

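RNA from Huh7 cells was sequenced in 9 libraries, 3 per siRNA, and for each library the authors deposited FPKM by gene identifier and symbol. The submitters' processing notes name FastQC 0.11.5, HISAT2 2.1.0, StringTie 1.3.3b, featureCounts, DESeq 1.28.0 and GRCh38. Which of these gave the FPKM, and whether counting used strand, is not given in the sources used here. FPKM are scaled to each library's total, so a change in a few abundant mRNAs shifts all others. With GENCODE release 29 exon lengths, 32080 of the 32906 genes (97.49%) came out as whole fragments in all libraries (within 0.05), with totals of 14597503 to 18058557. Replicates differed by more than counting noise, with chi-square per degree of freedom of 2.67 to 6.32.

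Values were compared as log2(FPKM + 1) in limma 3.58.1 (R 4.3.3), using limma-trend on all 9 libraries together without covariates. Testing covered the 14363 genes whose mean reached 1 FPKM in 1 group or more, and Benjamini-Hochberg adjustment ran over all of them. A call was an FDR under 0.05, with a fold change over 2 (the study's limit) as the stricter call. Each siRNA was compared with Scramble and with the other siRNA. The members and lists were chosen with earlier results of these data known. The genes named are the 10 members, KDM4C, KDM4B, genes overlapping a member, listed apoptosis genes past both limits in any comparison, for classes without such genes the 2 with the largest called changes against Scramble, and the 5 nearest to BMF. DYNLL1, HUWE1, USP9X, FBXW7, BTRC, TRIM17, FOXO1, FOXO3, FOXO4, CASP6, BNIP3L, BCL2L12 and BCL2L13 were named after their values were seen. Some listed genes are counted but not reported by name here. Alternatives were a pseudocount of 0.1, quantile normalization, no filter, 1 FPKM or more throughout (11171 genes), fits of only the 6 libraries compared, a replicate block, limma voom on recovered fragments (16010 genes), a GC adjustment with and without the block, an FDR of 0.01, and leaving out each library. The scripts were tested on simulated data. Coding sequences and coordinates came from GENCODE release 29 transcripts. Python 3.11.15 with numpy 2.4.6, pandas 2.3.3 and matplotlib 3.10.9 was used.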

Additional observations from a re-analysis of the deposited data

Results flagged for a closer look

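For 6 of the 10 genes the direct comparison of the siRNAs passed an FDR of 0.05 in limma, so the effects of the siRNAs on them differed by a test of the difference itself. On the log2 scale BMF stood 0.84 higher under Si-KDM4C#2. BCL2L1, which rose with both, was lower under Si-KDM4C#2 by the difference −1.06. MCL1, which fell under Si-KDM4C#2 and did not pass the test under Si-KDM4C#1, differed by −0.94. BAK1 differed by −0.68, BID by −0.29 and BCL2L11 by −0.22. Of all genes tested, 35.9% were higher and 26.5% lower in the same comparison, so a share of 6 in 10 is near the background and is no result about these genes as a group. KDM4C mRNA was also lower under Si-KDM4C#2 than under Si-KDM4C#1, and KDM4B fell under Si-KDM4C#2; their part in these differences was not tested.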

How the results depend on the processing

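Leaving out a library kept the log2 fold change of BMF between −2.80 and −2.58 under Si-KDM4C#1, between −1.93 and −1.80 under Si-KDM4C#2 and between 0.72 and 0.94 between the siRNAs. A pseudocount of 0.1 gave −3.60 and −2.22, and the voom fit −3.70 and −2.33, since a smaller added constant compresses low values less. Between the siRNAs BMF was at 0.84 as reported, short of a 2-fold change on that scale, and at 1.38 and 1.37 in these settings, past it. Where every library had to reach 1 FPKM, BMF dropped out, which left 0 genes higher under Si-KDM4C#2. With Si-KDM4C#1, 1 member was lower after quantile normalization and after the GC adjustment with or without the block. With Si-KDM4C#2, 2 were lower after the GC adjustment and 3 with the block added. Leaving out a library gave 2 to 3 members higher under Si-KDM4C#2, 1 to 2 higher and 5 to 6 lower between the siRNAs. Past a fold change of 2 there remained 1 risen member under Si-KDM4C#1, 0 risen and 0 fallen members under Si-KDM4C#2, and, between the siRNAs, 0 above and 1 below. Of the 63 other apoptosis genes tested it left 8 higher and 2 lower, 2 and 4, and 0 and 5, with the 2-fold backgrounds given above.

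The values whose sign turned had not passed the test as reported. After the GC adjustment, with and without the block, BCL2L11 under Si-KDM4C#2 was at 0.008, BAD under Si-KDM4C#2 at −0.33, BIK under Si-KDM4C#1 at −0.10, BCL2 under Si-KDM4C#1 at 0.047 and BAK1 under Si-KDM4C#2 at −0.11. After quantile normalization BAD under Si-KDM4C#2 was at −0.013, BCL2 under Si-KDM4C#1 at 0.12 and MCL1 under Si-KDM4C#1 at −0.12, and voom put BAD under Si-KDM4C#1 at 0.005. Leaving out a library moved BCL2L11 under Si-KDM4C#2 from −0.039 to 0.033, BAD from −0.008 to 0.16, BIK under Si-KDM4C#1 from −0.10 to 0.25 and BCL2 between the siRNAs from −0.078 to 0.013. The cause was not tested. Same-numbered libraries shared no visible deviation (mean correlation of deviations 0.016 over 9 pairs, −0.046 to 0.055). Over 18 pairs with other numbers the mean was −0.008 (−0.053 to 0.064). With so few libraries these values cannot show whether same-numbered libraries were handled together. With the replicate numbers as a block, 5 members rose under Si-KDM4C#1 and 3 under Si-KDM4C#2. Of all genes, 4538 rose under Si-KDM4C#1 with the block, beside 4560 without it. The block alone changed no call of a member. Depth limits BIK most, with 126 to 180 fragments per group.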
